A study of Mus musculus with 5 samples.

Results

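Chromatin accessibility was examined at 8 genes that are standard examples of Myc targets, in mouse 3T9 fibroblasts carrying MycER. The members were the DNase I hypersensitive sites in windows of 55 to 85 kb around Ncl, Npm1, Fbl, Odc1, Cad, Ldha, Cdk4 and Ccnd2, 525 kb in all on mm9. Peaks of the distinct lists that overlapped by at least 1 bp were merged into sites, and a site was a member if it overlapped a window. This gave 46 of the 52181 sites of the series. The windows overlapped 43 of 47621 peaks in the 4-OHT list, 34 of 44956 in the list deposited under both treatments, and 26 of 35149 in the vehicle list.

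The treated cells received 400 nM 4-hydroxytamoxifen (4-OHT) for 4 h, and the vehicle cells received ethanol (EtOH, 0 h). All cells were 3T9 fibroblasts, a line obtained by serial passage of embryonic fibroblasts, here of mixed strain and from E13.5 embryos. All carried floxed c-myc alleles and had been infected in vitro with MycER, a fusion of Myc to an estrogen receptor domain that 4-OHT activates. The labels name no recombinase and no cells without MycER. An input of sonicated genomic DNA is also labelled and was not analysed here.

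DNase-seq reads the short fragments that DNase I releases from chromatin, so a peak marks an accessible stretch such as an active promoter or enhancer. Each group had 2 libraries. One list of 44956 peaks was deposited under both treatments, as replicate 1 of 4-OHT and replicate 2 of EtOH, with every interval and score the same. It is called the doubly labelled list. That leaves 1 list of undisputed label per treatment: the 4-OHT list (replicate 2, whose title has the letter B) and the vehicle list (replicate 1, no letter). Treatment and letter cannot be told apart between them. With a single list a side the comparison has no replicate check and allows no test. The labels do not say whether libraries came from separate cultures. Each peak has a score, the authors' own value from the peak caller, with a lowest value of 80 and a pile-up at 3100, called the ceiling here. Depth is unknown, so a site without a peak was not detected in that list and is not shown to be closed.

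Myc is a transcription factor of the basic helix-loop-helix leucine zipper family. With its partner Max it binds E-boxes, of which CACGTG is the canonical form, mostly in chromatin that is already accessible, and it is known for driving ribosome production, nucleotide and polyamine synthesis, glycolysis and cell cycle entry. In fibroblasts these programmes accompany the return of resting cells to growth. Nucleolin (Ncl), nucleophosmin (Npm1) and fibrillarin (Fbl) are nucleolar proteins of ribosome assembly. Odc1 encodes the rate-limiting enzyme of polyamine synthesis, Cad the enzyme that opens pyrimidine synthesis, and Ldha a lactate dehydrogenase subunit. Cdk4 and its partner cyclin D2 (Ccnd2) drive passage through G1.

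The reference promoters of these genes are shown for the E-boxes they hold. RefSeq promoter entries, on build GRCm38.p6, matched 5 of the 8 genes (Ncl, Odc1, Cad, Ldha and Cdk4), and the 250 bases before the annotated start were searched on both strands. CACGTG, which reads the same on both strands, was found at 2 of these genes, 4 times before Cdk4 and 2 times before the first of the Ldha starts. It was found in 6.02% of all 32851 promoter entries and, counted by gene, at 6.86% of the 27025 genes with an entry. The Cdk4 sequence (chr10:127063285-127063534, plus strand) and the Ldha sequence (chr7:46845554-46845803, plus strand) have CACGTG in capitals. The Odc1 sequence (chr12:17544623-17544872, plus strand) has no CACGTG in this stretch, and its capitals mark the related motif CACGCG and the same motif read on the other strand. These coordinates are of another build than the peaks and were not converted, so no site below is placed against a gene start.
Cdk4: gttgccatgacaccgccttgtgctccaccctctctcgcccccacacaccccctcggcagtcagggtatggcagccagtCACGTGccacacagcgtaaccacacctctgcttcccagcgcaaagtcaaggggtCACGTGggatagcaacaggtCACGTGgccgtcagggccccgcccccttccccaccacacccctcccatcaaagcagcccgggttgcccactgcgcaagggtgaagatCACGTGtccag
Ldha: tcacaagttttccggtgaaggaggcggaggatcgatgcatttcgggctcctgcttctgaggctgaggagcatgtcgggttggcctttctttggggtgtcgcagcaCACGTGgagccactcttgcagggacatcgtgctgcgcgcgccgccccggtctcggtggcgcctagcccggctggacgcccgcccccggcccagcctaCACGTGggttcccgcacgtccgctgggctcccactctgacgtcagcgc
Odc1: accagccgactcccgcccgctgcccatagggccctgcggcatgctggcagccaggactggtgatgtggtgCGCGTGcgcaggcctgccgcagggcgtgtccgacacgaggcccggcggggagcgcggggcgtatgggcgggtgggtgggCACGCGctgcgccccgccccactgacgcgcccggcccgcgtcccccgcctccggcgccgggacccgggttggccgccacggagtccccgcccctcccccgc

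In these stretches the first bases of the CACGTG matches lay 172, 118, 98 and 11 bases before the Cdk4 start, and 145 and 48 bases before the Ldha start. The search was also made for 48 other genes of the Myc programme and the Myc and Max network. CACGTG was found at 9 of the 44 that had an entry (20.5%), against 6.86% of the 27025 genes with an entry in all. The 9 were Eif4e with 2 matches, and Eif4a1, Hspd1, Impdh2, Mlx, Mnt, Mxd4, Nme1 and Paics with 1 each. With CACGCG and also CATGCG allowed on both strands, a match was found at 3 of the 5 members with an entry and at 19.1% of all genes with an entry. A match describes the reference letters only.

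Each of the 8 windows already had a strong site in the vehicle list. The strongest site of a window was chosen among its sites shared by all lists. It was the one with the highest lowest score over the 3 distinct lists. Its presence in every list therefore follows from the definition, and its score is the value it was chosen by. How often other windows of such length hold a ceiling site was not counted. The strongest site stood at the ceiling of 3100 in every list for Ncl, Npm1, Fbl, Odc1, Cad, Ldha and Cdk4. At Ccnd2 it scored 3100 in the 4-OHT list, 3100 in the doubly labelled list and 1880 in the vehicle list. Sites at the ceiling in every list made up 7 of the 25 member sites shared by all lists (28.0%, exact 95% binomial interval 12.1% to 49.4%), and 2731 of the 31871 shared sites of the series (8.57%). The intervals cover counting error only, and neighbouring sites are not independent.

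**Figure D1:**
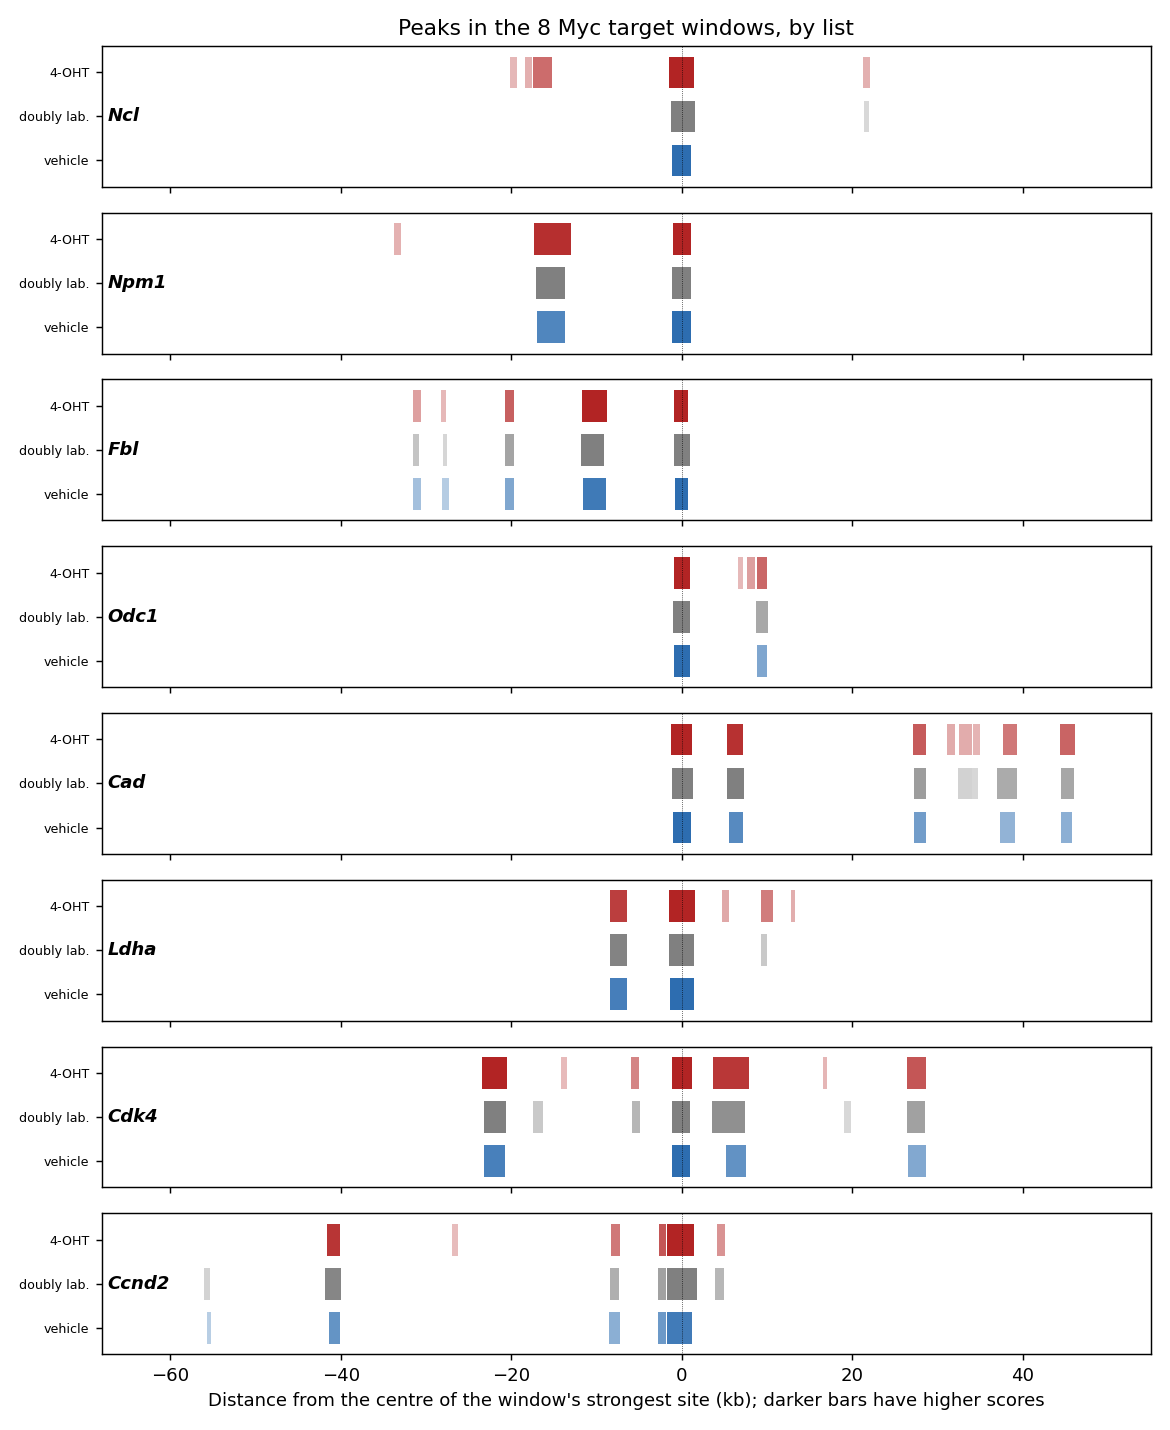
Peaks of the 8 windows by distance from the centre of the window's strongest site (kb), with the 4-OHT list above the doubly labelled list and the vehicle list in each panel; each bar spans the peaks of 1 site and darker bars have higher scores. All 8 strongest sites have a bar in every list by definition, and the Fbl window alone has the same 5 sites in all lists.

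Most sites that had no vehicle peak scored under 200. Of the 46 member sites, 26 had a peak in the vehicle list (56.5%, interval 41.1% to 71.1%), beside 65.1% of all sites. A peak in every list was found at 25 (54.3%, interval 39.0% to 69.1%), beside 61.1% of all sites. Among the 43 member sites of the 4-OHT list, 18 had no vehicle peak (41.9%, interval 27.0% to 57.9%), beside 29.6% of all sites of that list, a share inside the interval. The count depends on the lists: with each cut to its 35149 highest-scoring peaks it was 5 of 29 (17.2%; all sites 12.5%), without 4-OHT 4 h replicate 2 it was 9 of 35 (25.7%; all sites 26.9%), and without EtOH 0 h replicate 2 it was 6 of 31 (19.4%; all sites 18.7%). Of these 18, 6 were also in the doubly labelled list (14.0% of the 43; all sites 15.8%). The other 12 were in the 4-OHT list alone (27.9%, interval 15.3% to 43.7%), beside 13.8% of all sites, a share below the interval. At equal list length 2 of 29 sites were in the 4-OHT list alone, a setting for which the share over all sites was not computed. Without the Ncl window there were 9 of 38, beside the same 13.8% of all sites. Among the 34 member sites of the doubly labelled list, 8 had no vehicle peak (23.5%, interval 10.7% to 41.2%), beside 26.6% of all its sites. Set against each other, the 4-OHT list had 12 of 43 member sites with no doubly labelled peak (27.9%, interval 15.3% to 43.7%; all sites 15.5%), and the doubly labelled list had 3 of 34 with no 4-OHT peak (8.82%; all sites 11.4%). In the other direction, 1 of the 26 vehicle sites had no 4-OHT peak (3.85%, interval 0.0973% to 19.6%), beside 3.87% of all vehicle sites.

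The share without a vehicle peak was lowest at high scores. The 18 sites had a median score of 112 in the 4-OHT list, from 80.4 to 541, and 14 of them scored under 200. The median over all 13751 sites of that kind in the series was 119. A vehicle peak was lacking at 6 of 7 member sites with a 4-OHT score from 80 to 100 (85.7%; all sites 86.9%) and at 8 of 9 from 100 to 200 (88.9%; all sites 64.5%). It was lacking at 3 of 5 from 200 to 500 (60.0%, interval 14.7% to 94.7%; all sites 16.4%) and at 1 of 22 at 500 and above (4.55%; all sites 0.241%). The bins above 100 hold the member shares that exceed those of all sites, on 12 sites in all, and in each of these bins the share of all sites lies within the members' exact interval (51.8% to 99.7% from 100 to 200, and 0.115% to 22.8% at 500 and above).

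**Figure D2:**
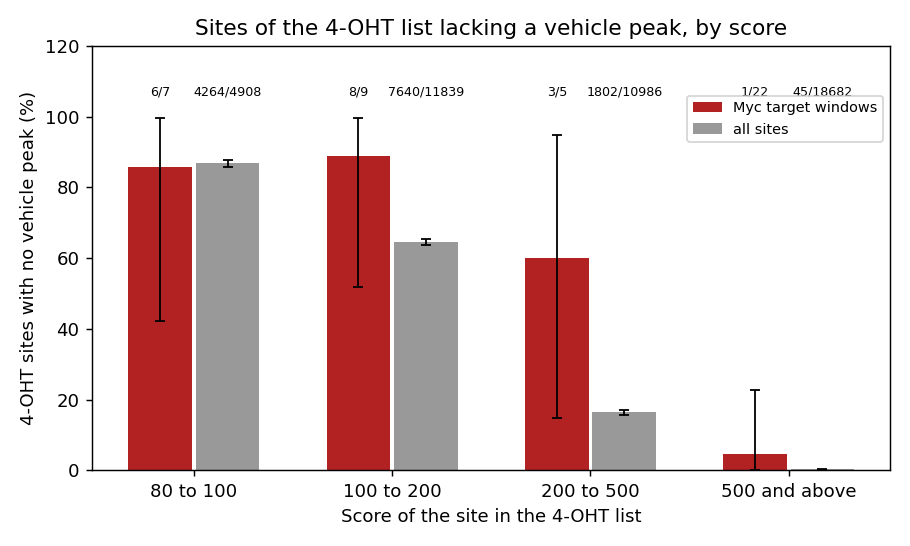
Percentage of sites of the 4-OHT list with no vehicle peak, by their score in the 4-OHT list, for the Myc target windows and for all sites; bars are shares with exact 95% binomial intervals and the numbers of sites above. Both shares are lowest at 500 and above, with 1 of 22 window sites and 45 of 18682 of all sites.

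By the roles of the genes, the nucleolar windows held 13 sites, of which 8 had a vehicle peak. The metabolic windows held 17 sites, 9 of them with a vehicle peak, and the cell cycle windows held 16, 9 of them with a vehicle peak. Over the whole series 65.1% of sites had a vehicle peak. The 4-OHT sites without a vehicle peak were 5 of 13, 8 of 17 and 5 of 13 in the same order of roles. Over all sites of the 4-OHT list the share was 29.6%, and the counts by role are too small to set the roles apart. All windows but that of Fbl had at least 1 4-OHT site without a vehicle peak, and 5 windows had 1 that the doubly labelled list shared.

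The Ncl window (chromosome 1, 88215000 to 88280000) showed the widest difference between lists among the nucleolar genes. Its 1 vehicle site, at 88254578 to 88257580, was at the ceiling in every list, with peaks of 2977 bp in the 4-OHT list, 2719 bp in the doubly labelled list and 2153 bp in the vehicle list. From 16.4 kb below its centre downward, 3 neighbouring peaks lay in the 4-OHT list alone. They scored 91.2 at 88235927 to 88236755, 111 at 88237657 to 88238496 and 541 at 88238591 to 88240866, with gaps of 901 and 94 bp. The group spans 4940 bp, and the strongest of them, 2276 bp wide, is the 1 member site at 500 or more without a vehicle peak. The doubly labelled list had no peak at any of them. Peaks of the window covered 7681 bp in the 4-OHT list, 3334 bp in the doubly labelled list and 2153 bp in the vehicle list, and this ratio of 3.57 between the 4-OHT and vehicle lists compares with 0.976 to 1.64 in the other windows. At 88277367 to 88278125 a further site scored 109 in the 4-OHT list and 81.4 in the doubly labelled list, with no vehicle peak.

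The Npm1 window had 3 sites in the 4-OHT list and 2 in each of the other lists, and the Fbl window had the same 5 in every list. In the Npm1 window (chromosome 11, 33025000 to 33090000) the ceiling site at 33061774 to 33064040 had peaks of 2110 bp in the 4-OHT list, 2267 bp in the doubly labelled list and 2202 bp in the vehicle list. A broad site 15.2 kb below it, at 33045520 to 33049940, scored 2350, 3117 and 1266 in the same order of lists, with peaks of 4421, 3443 and 3305 bp. The 1 site without a vehicle peak, at 33029195 to 33029920, scored 104 in the 4-OHT list alone.

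In the Fbl window (chromosome 7, 28930000 to 28990000) all 5 sites were found in every list. Beside the ceiling site at 28963762 to 28965610, the site at 28952838 to 28955888 scored 3100 in the 4-OHT list, 3100 in the doubly labelled list and 1970 in the vehicle list. The site at 28943907 to 28945048 scored 726, 696 and 393 in that order of lists. Even the weakest were repeated: 28933127 to 28934083 scored 156, 184 and 158, and 28936461 to 28937391 scored 87.1, 87.0 and 101.

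The Odc1 window (chromosome 12, 17525000 to 17585000) held 4 sites, the fewest after Npm1 with 3. The ceiling site at 17550766 to 17552706 hardly differed in width, with 1897 bp in the 4-OHT list, 1941 bp in the doubly labelled list and 1886 bp in the vehicle list. A second shared site at 17560495 to 17561815 scored 618 in the 4-OHT list, 577 in the doubly labelled list and 398 in the vehicle list. Between them lay 2 peaks of the 4-OHT list alone, at 17558297 to 17558875 (score 86.7) and 17559451 to 17560304 (score 160), 575 bp apart.

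The Cad window (chromosome 5, 31330000 to 31405000) held 8 sites, 5 of them in every list. RefSeq places Atraid and Slc30a3 as the neighbouring coding genes, so the ceiling site at 31349696 to 31352252 cannot be given to one of these genes here. The next site, at 31356250 to 31358236, scored 2269 in the 4-OHT list, 3025 in the doubly labelled list and 1078 in the vehicle list. Shared sites further up, at 31378122 to 31379685, 31387954 to 31390358 and 31395390 to 31397121, scored 823, 409 and 664 in the 4-OHT list, 912, 525 and 603 in the doubly labelled list, and 547, 245 and 285 in the vehicle list. Between the first and the second of these, 3 weak sites without a vehicle peak spanned 3965 bp. The one at 31382050 to 31382986 scored 123 in the 4-OHT list alone. The others, at 31383429 to 31385055 and 31385061 to 31386014, scored 116 and 97.7 in the 4-OHT list and 101 and 84.3 in the doubly labelled list.

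In the Ldha window (chromosome 7, 54075000 to 54135000) the ceiling site at 54100080 to 54103078 had peaks of 2999 bp in the 4-OHT list, 2892 bp in the doubly labelled list and 2770 bp in the vehicle list. The shared site at 54093181 to 54095212 scored 1658, 2710 and 1669 in that order of lists. By percentile rank among the sites shared by all lists it stood at 70.77, 76.42 and 80.52. The shift from the vehicle list to the 4-OHT list was thus −9.74 points, although the raw scores were close. Above the ceiling site, 3 sites had no vehicle peak. The one at 54110870 to 54112287 scored 369 in the 4-OHT list, with a peak of 1418 bp, and 149 in the doubly labelled list, with a peak of 693 bp. The others, at 54106270 to 54107084 and 54114344 to 54114901, scored 129 and 114 in the 4-OHT list alone.

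The Cdk4 window (chromosome 10, 126475000 to 126530000) was the most crowded, with 9 sites in the shortest window. The ceiling site at 126499765 to 126502151 had peaks of 2366 bp in the 4-OHT list, 2068 bp in the doubly labelled list and 2202 bp in the vehicle list. At 126504547 to 126508794 the called interval was 4224 bp in the 4-OHT list, 3860 bp in the doubly labelled list and 2279 bp in the vehicle list. There the peaks of the 4-OHT and doubly labelled lists began 1600 and 1624 bp below the start of the vehicle peak. The scores at this site were 1969, 1612 and 817 in the same order of lists. The sites at 126477572 to 126480485 and 126527347 to 126529594 scored 3100 and 932 in the 4-OHT list, 3100 and 793 in the doubly labelled list, and 1576 and 368 in the vehicle list.

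Around these, the Cdk4 window had 5 sites without a vehicle peak. The one at 126495032 to 126496106 was in both other lists, with scores of 296 in the 4-OHT list and 332 in the doubly labelled list. The 4-OHT list alone held 126486847 to 126487535 (score 83.6) and 126517481 to 126518041 (score 93.2). The doubly labelled list alone held 126483512 to 126484672 (score 148) and 126520028 to 126520765 (score 80.2). RefSeq names Marchf9 and Tspan31 as the neighbouring coding genes, and no site was assigned to a gene.

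In the Ccnd2 window (chromosome 6, 127045000 to 127130000) the strongest site, at 127098507 to 127101982, had a peak of 3225 bp in the 4-OHT list, 3476 bp in the doubly labelled list and 2882 bp in the vehicle list. A site 40.9 kb below it, at 127058345 to 127060267, scored 2049, 2346 and 780 in that order of lists. The shared sites at 127097429 to 127098393 and 127091698 to 127093024 scored 931 and 417 in the 4-OHT list, 743 and 429 in the doubly labelled list, and 641 and 293 in the vehicle list. At 127104188 to 127105336 a site scored 213 in the 4-OHT list and 309 in the doubly labelled list and had no vehicle peak. The 4-OHT list alone held 127073249 to 127074001 (score 80.4). The 1 vehicle site of all windows without a 4-OHT peak lay here, at 127044240 to 127045051, with scores of 97.3 in the doubly labelled list and 96.3 in the vehicle list. It crosses the edge of the window, and the peak of the doubly labelled list there ends outside it.

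**Figure D3:**
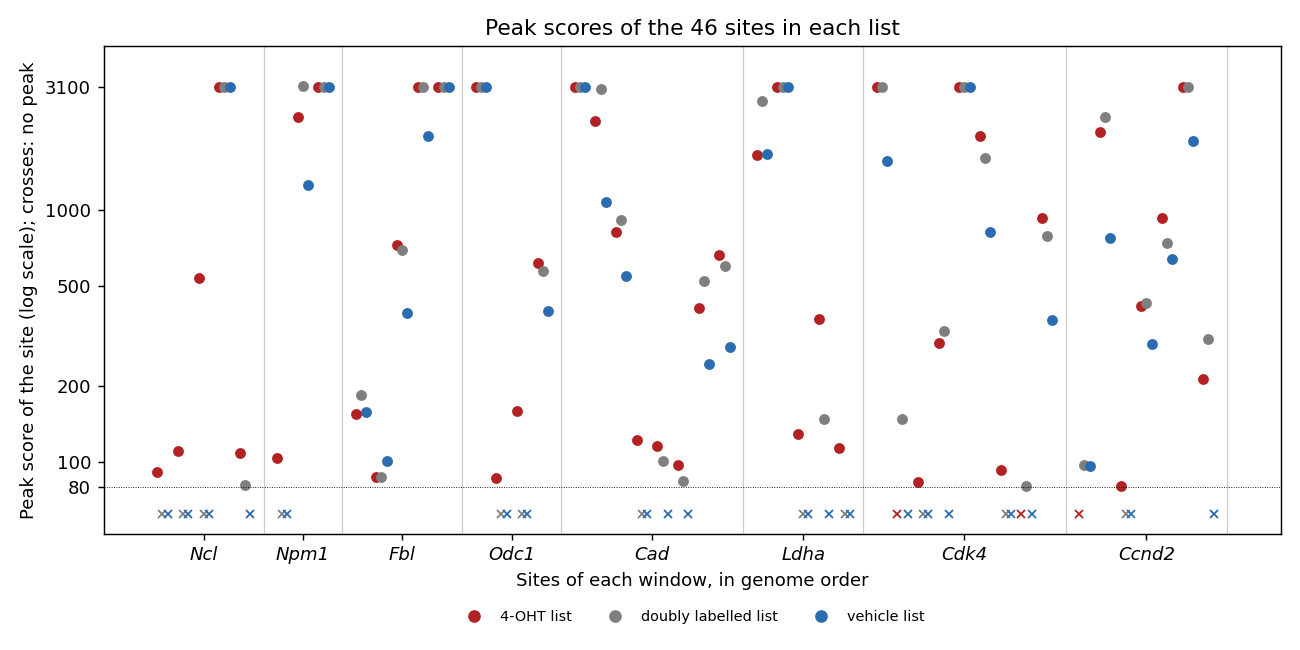
Peak score (log scale) of each of the 46 sites in genome order within its window, with the 4-OHT list, the doubly labelled list and the vehicle list from left to right at each site; crosses mark a site with no peak in that list, below the lowest score of 80. Sites without a vehicle peak score at most 541 in the other lists, and the 7 sites at 3100 in all lists lie 1 to a window, with none at Ccnd2.

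Raw scores ran higher in the 4-OHT and doubly labelled lists at shared sites of the whole series (medians 681 and 765, against 392 in the vehicle list), so scores were also compared by rank. The percentile rank of each site was taken among the 31871 shared sites of a list, and the vehicle rank subtracted from the 4-OHT rank. The 25 shared members had a median shift of −2.81 points (from −15.52 to 12.45), and all shared sites had −0.54. The sign of the members' median is not stable: it was 2.12 without EtOH 0 h replicate 1, and 8.74 with ranks among all sites of each list, where all shared sites had 9.31. The ceiling sites share a tied rank in each list, which is why all 7 have the same shift, −3.56. Of the other 18 shared members, 10 had a higher rank in the 4-OHT list (55.6%), with a median of 2.56 points, beside 52.3% and 0.49 points over the 29140 sites of the series outside the ceiling.

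Shifts of at least 10 points were few. They were upward at 2 of the 25 shared members (8.00%), beside 14.2% of all shared sites, and downward at 1 (4.00%), beside 12.9%. The tie holds the 7 ceiling members at −3.56, so only the other 18 could reach 10 points. Ceiling sites made up 28.0% of the shared members and 8.57% of all shared sites, so these shares are not on equal terms. Leaving out 1 library moved the counts of members past 10 points. They were 0 up and 0 down without 4-OHT 4 h replicate 1. They were 1 up and 2 down without either 4-OHT 4 h replicate 2 or EtOH 0 h replicate 1. Shares over all shared sites were not computed for these settings, so these counts cannot be set beside the series. With all lists kept, the upward ones were the site at 126477572 in the Cdk4 window and the site at 127058345 in the Ccnd2 window. The Cdk4 site ranked at 91.84 for 4-OHT and 79.38 for vehicle, and the Ccnd2 site at 75.28 and 65.21. The Cdk4 site scored 3100 in the 4-OHT and doubly labelled lists, so its ranks there are those of the tie and its shift depends on it. The doubly labelled list stood 9.84 and 8.04 points above the vehicle list at the Cdk4 and Ccnd2 sites. The downward one was the weak site at 28933127 in the Fbl window, ranked at 7.59 for 4-OHT and 23.11 for vehicle. The shift of the doubly labelled list against the vehicle list was −11.73 points there. At the broad Npm1 site the doubly labelled list was 24.15 points above the vehicle list and the 4-OHT list only 3.45 points above it. The doubly labelled score there, 3117, lies just past the tie at 3100. It ranks at 99.19, where the tied sites of that list rank at 89.22, so part of the 24.15 points comes from the tie.

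**Figure D4:**
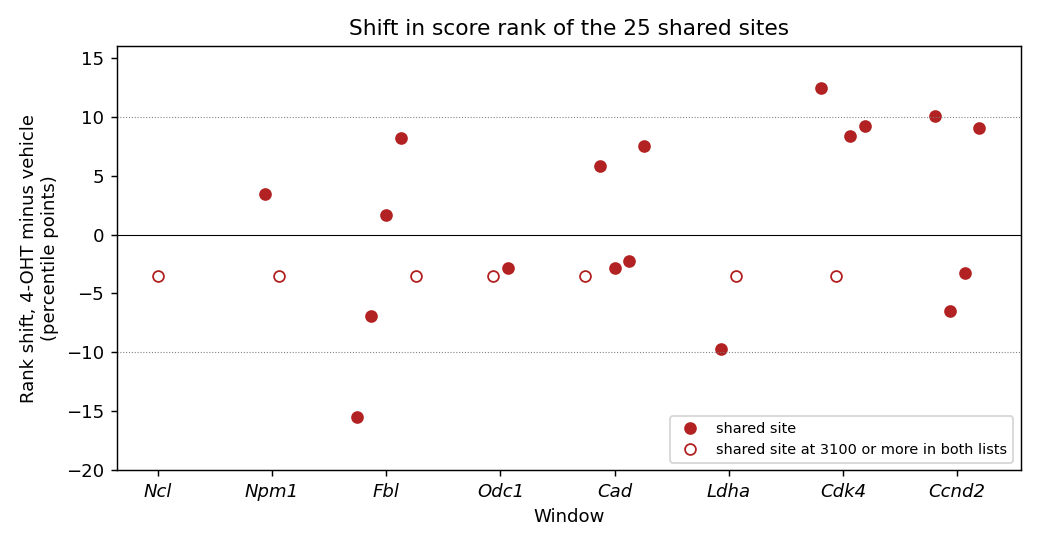
Shift in score rank (percentile points, 4-OHT minus vehicle) of the 25 shared sites by window, with sites in genome order; open circles are at 3100 or more in both lists and dotted lines mark 10 points either way. The open circles all stand at −3.56 because of the tie, and 3 sites lie past the dotted lines.

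The shared members had wider peaks than the shared sites of the series in each list. Their median widths were 1907 bp in the 4-OHT list, 2020 bp in the doubly labelled list and 1886 bp in the vehicle list. Over all shared sites these were 1389, 1450 and 1279 bp in the same order. The members also scored higher, with a median of 2050 in the 4-OHT list against 681 over all shared sites. Widths were not compared at like scores. The differences in width between lists, in contrast, were close to those of the series. Of the 25, 17 had more bases under 4-OHT peaks than under vehicle peaks (68.0%; all shared sites 68.8%), and 20 had more under doubly labelled peaks than under vehicle peaks, as did 75.3% of all shared sites. The median ratio of widths was 1.08 for the 4-OHT list over the vehicle list at the members and 1.06 over all shared sites. The 8 strongest sites were 1560 to 3225 bp wide in the 4-OHT list, 1849 to 3476 bp in the doubly labelled list and 1531 to 2882 bp in the vehicle list. In the vehicle list they were wider than 67.3% to 95.4% of its sites.

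The number of further sites within 30 kb of a strongest site was set beside that around all 2731 ceiling sites. In the 4-OHT list it was 5 at Ncl, 1 at Npm1, 4 at Fbl, 3 at Odc1, 2 at Cad, 4 at Ldha, 6 at Cdk4 and 4 at Ccnd2, with a median of 2 over the ceiling sites (quartiles 1 and 5). In the vehicle list it was 0 at Ncl, 4 at Fbl, 3 at Cdk4, 2 at Cad and Ccnd2, and 1 at Npm1, Odc1 and Ldha, with a median of 2 (quartiles 1 and 3). Ncl differed most, with 5 such sites in the 4-OHT list, 2 in the doubly labelled list and none in the vehicle list.

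The windows are fixed intervals, and some sites, strong or weak, lay beyond their edges. The Npm1 window missed a site 1089 bp below it with scores of 2099 in the 4-OHT list, 2868 in the doubly labelled list and 1766 in the vehicle list, while the first site inside scored 104 in the 4-OHT list alone. At the upper edge of the Cdk4 window the last site inside scored 932, 793 and 368 in that order of lists, and the first outside, 97 bp beyond, scored 437, 308 and 140. The first site below the Cdk4 window, 6581 bp away, scored 2250, 2391 and 972, and the first below the Odc1 window, 6985 bp away, scored 2326, 2953 and 1863, in the same order of lists. At all other edges the nearest outside site was 3705 bp or more away.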

How the data were processed

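DNase-seq peak lists of 4 libraries were analysed, as deposited by the authors. The submitters' processing notes name BWA 0.6.2, SAMtools, MACS 1.4.1 and mm9. Settings, and any use of the input or of a depth scaling, are not given in the sources used here. The deposited score is the caller's value per peak; MACS 1.4 writes minus 10 times the log10 of a p-value, a meaning taken from the tool's name and not from a header. Per the labels' protocols, the digests sequenced came from 200 to 300 U/ml of DNase I.

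The windows and gene lists were chosen with earlier results of these data known. Peaks were merged at 1 bp of overlap (checked against bedtools 2.31.1, 52181 sites in both), a site's score being its highest peak score in that list and its width the sum of its peaks. The merge was tested on simulated lists. Shares carry exact (Clopper-Pearson) 95% intervals. Ranks average ties. Starts are counted from 1. Python 3.11.15, pandas 2.3.3, scipy 1.17.1 and matplotlib 3.10.9 were used. With 1 undisputed list per treatment no test was run. Named were all 8 loci, each window's strongest site (ties by width), sites lacking in the vehicle or 4-OHT list and shifts of 10 points; other shared sites, the broad Npm1 and Cdk4 sites among them, were added after their values were seen. Sites at gene starts were not placed, as the reference is not mm9.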

Additional observations from a re-analysis of the deposited data

How the results depend on the processing

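Counts of window sites with a vehicle peak (25 to 33) and in every list (24 to 31) stayed within 1.5 times the values reported under every alternative. Sites of the 4-OHT list without a vehicle peak were less stable than these counts. At equal list length (35149 highest-scoring peaks per list) they were 5 of 29 (17.2%, all sites 12.5%) in place of 18. Those of the 4-OHT list alone were 2 of 29 in place of 12, with no share over all sites computed. That length leaves out 4-OHT peaks scoring below 148. Leaving out each library in turn, with the doubly labelled list standing for the missing side or for 1 label only, gave 6 to 12. The 6 came without EtOH 0 h replicate 2, where both lists labelled 4-OHT had to hold the site (19.4%; all sites 18.7%), and 9 came without 4-OHT 4 h replicate 2 (25.7%; all sites 26.9%). The count was 12 without EtOH 0 h replicate 1 (27.9%; all sites 15.5%) and 12 without 4-OHT 4 h replicate 1 (27.9%; all sites 13.8%). Without the Ncl window 14 of 38 remained (36.8%, all sites 29.6%), and 9 of 38 were in the 4-OHT list alone (all sites 13.8%). This and the other settings for sites of that list alone were chosen after seeing the data. Vehicle sites without a 4-OHT peak were 2 at equal length and 0 to 2 without 1 library, with no shares over all sites computed for these settings.

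The median rank shift of −2.81 ran from −4.83 to 2.12 without 1 library, positive without EtOH 0 h replicate 1. Ranked among all sites of each list it was 8.74 (all shared sites 9.31), with 10 members up by 10 points or more (all shared sites 47.4%) and 0 down; list length enters these ranks. Members with upward shifts were 4 at equal length, 0 at a limit of 20 points and 0 to 2 without 1 library. Those with downward shifts were 2 at equal length and at scores of at least 100, 0 at a limit of 20 points and 0 to 2 without 1 library. For these upward and downward counts the shares over all shared sites were not computed, so they cannot be set beside the series. With 3 motifs in place of 1 (CACGCG and also CATGCG allowed), 3 member promoters held a match. No paired analysis was possible because 1 list stands in both groups and no test was run. Depth is unknown.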
